A study of Arabidopsis thaliana with 24 samples.

Results

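The comparison described here is that of Arabidopsis thaliana rosettes held for 78 h at 8 °C with rosettes held for the same 78 h at 20 °C. It rests on 4 of the 24 arrays of the series, taken by their titles: arrays A and B of the 8 °C plants, and arrays A and B of the 20 °C plants. Each array carried 22746 probe sets for plant transcripts, and all of them entered the test. All plants were wild-type accession Col-0, grown on soil at 20 °C under 12 h of light per day at 130 µmol until 4 weeks old. The 8 °C plants were moved to 8 °C 4 h after the light came on, and the 20 °C plants went through the same move at 20 °C. Rosettes were frozen 10 h into the light period, 3 per sample, so both groups were harvested at the same time of day. The wider series repeats this at 17, 14, 12 and 10 °C and at 6 h. The 6 h plants (8 °C and 20 °C, 2 arrays each) and the 10 °C plants of 78 h (2 arrays) are used below for comparison. Per the labels there were typically 5 or more replicate samples, whose relation to the 2 arrays of a group is not settled. The p-values measure only how far these samples spread, which may be technical, and precision is limited by how few arrays there are. Each sample is a whole-rosette pool, in which fewer cells of a type and less RNA per cell cannot be told apart.

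Arabidopsis is a chilling-tolerant plant that becomes more freezing tolerant while it is held at low, non-freezing temperature, a process called cold acclimation. Its best known early branch runs through the CBF transcription factors, which switch on COR genes and dehydrins, small hydrophilic proteins thought to protect membranes and proteins. Over days, leaves in the cold also accumulate soluble sugars and anthocyanins, adjust photosynthesis to light absorbed while enzymes run slowly, and extend more slowly. A harvest after days therefore looks at a later state than the first burst of signalling.

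The deposited signals are on a log2 scale, so that a difference of 1 is a doubling. Values lay between 3.87 and 14.81, with array medians from 7.15 to 7.25. Arrays A and B correlated across probe sets at 0.992 both at 8 °C and at 20 °C, while the 8 °C and 20 °C arrays of one letter correlated at 0.983 (A) and 0.987 (B). The letter was the largest source of variation among all 24 arrays (first principal component, 39.2% of the variance), so the arrays are compared within letters. Leaf markers were among the brightest signals, with light-harvesting and photosystem transcripts between 10.7 and 14.5 on these 4 arrays. Differences in signal between the ends of the control transcripts, a sign of RNA quality, were 0.11 and 0.065 for GAPDH at 8 °C, against 0.098 and 0.016 at 20 °C. For ubiquitin they were 0.96 and 1.15 at 8 °C, against 1.06 and 1.12 at 20 °C. Actin had 1.09 and 1.05 at 8 °C, against 1.37 and 0.94 at 20 °C, the widest gap of the 3.

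After 78 h the cold had changed a large share of the transcripts, mostly by less than 2-fold. At a limma adjusted p under 0.05, 5075 probe sets (22.3%) differed between 8 °C and 20 °C, 2346 higher (10.3%) and 2729 lower (12%) at 8 °C. When each array was centred on its median the split turned to 3146 higher and 2321 lower, 57.5% higher in place of 46.2%. The median size of a called difference was 0.48, and 90% were under 0.96. At least 2-fold differences were found at 458 probe sets (2.01%). Without the letter in the model 1675 probe sets were called (7.36%), all of them among the 5075. The group left with 1 array is assumed to vary like the others in the following counts: 2594 were called without array A of 8 °C, and 3319 without array A of 20 °C. Among the 13513 probe sets with a single listed gene, 2717 were called (20.1%), 1292 higher and 1425 lower. The largest changes of all lay on probe sets with no listed gene. Probe set 258321_at had signals of 12.09 and 12.16 at 8 °C, against 6.46 and 6.65 at 20 °C, and 260221_at had 6.14 and 5.85 at 8 °C, against 9.74 and 9.18 at 20 °C. These differ by 5.57 ± 0.33 (SE) and by -3.47 ± 0.61.

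The gene with the largest rise was LTI30, a dehydrin of the cold-acclimation response. Its log2 signal was 13.35 and 12.57 at 8 °C, against 9.91 and 9.09 at 20 °C, an increase of 3.46 ± 0.21 or 11.0-fold (limma adjusted p = 1.16e-07). SWEET13, a sucrose exporter of the plasma membrane that helps load the phloem, had 10.01 and 9.47 at 8 °C, against 6.84 and 6.51 at 20 °C, which is 8.41-fold higher (adjusted p = 1.48e-08). For both genes the groups lay more than 2 log2 units apart and neither overlapped. BETA-VPE, a vacuolar processing enzyme (a cysteine protease that cuts vacuolar proteins), had 9.39 and 8.91 at 8 °C, against 6.88 and 6.66 at 20 °C, 5.21-fold higher (adjusted p = 1.12e-07). AT2G16890 had 9.40 and 9.39 at 8 °C, against 6.50 and 6.55 at 20 °C, so that its arrays agreed within 0.1 in each group and differed 7.33-fold between them. AT1G80130 was 7.57-fold higher, with 11.37 and 11.01 at 8 °C, against 8.32 and 8.22 at 20 °C. The other rises among the 15 largest were AT5G62210 (5.60-fold), CHIL (4.80-fold), AT1G48100 (4.72-fold), AT1G16850 (4.01-fold), AT5G48490 (4.00-fold), AT4G12490 (3.69-fold), AT1G19450 and AT5G35970 (both 3.62-fold), and DFR and AT4G14090 (both 3.35-fold). All of the 15 were above 20 °C in both letters, which the choice of genes required. CHIL and AT4G12490 were not called without the letter (adjusted p = 0.0557 and 0.203). In both genes the A array was brighter than the B array at either temperature: AT4G12490 had 10.53 and 9.20 at 8 °C, against 8.52 and 7.44 at 20 °C.

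**Figure D1:**
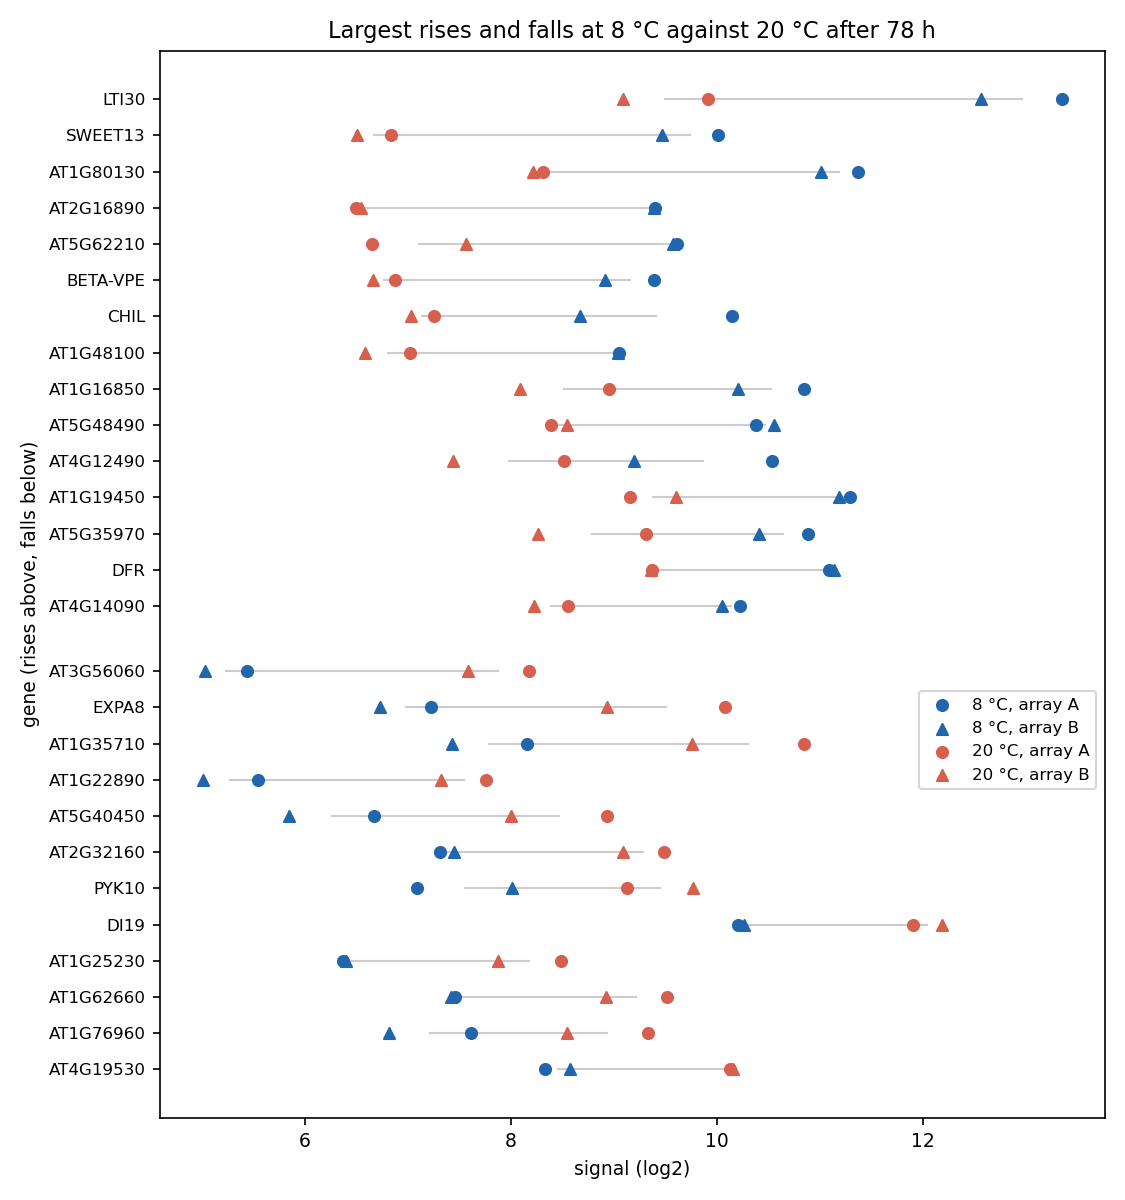
Log2 signals of the 15 largest rises (top) and the 12 largest falls (bottom) after 78 h, blue for 8 °C and red for 20 °C, circles for array A and triangles for array B, with a grey line joining the group means. In each of the 27 genes both 8 °C arrays lie on the same side of both 20 °C arrays. Levels can be compared within a gene only.

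The largest fall of a listed gene was that of AT3G56060, with 5.44 and 5.03 at 8 °C, against 8.18 and 7.59 at 20 °C (-2.64 ± 0.19, adjusted p = 6.15e-07). EXPA8, an expansin that loosens the cell wall, had 7.23 and 6.73 at 8 °C, against 10.08 and 8.94 at 20 °C, and was 5.77-fold lower. DI19, a zinc finger protein first described from drought-treated plants, had 10.20 and 10.26 at 8 °C, against 11.90 and 12.18 at 20 °C, and was 3.50-fold lower (adjusted p = 4.41e-08). The DI19 arrays agreed within 0.3 in each group, while those of EXPA8 spread more widely, above all at 20 °C. PYK10, a beta-glucosidase of endoplasmic reticulum bodies that is most abundant in roots, had 7.09 and 8.01 at 8 °C, against 9.12 and 9.77 at 20 °C (-1.89 ± 0.19, adjusted p = 7.87e-06). Of the 3 measured root markers it was the only one called, since EXPA7 (0.15) and EXPA18 (-0.11) did not pass the test. The summed linear signal of these markers was 250 and 373 at 8 °C, against 661 and 992 at 20 °C, a fall that came from PYK10. EXPA7 lay below the array medians and was nearly level, with 6.03 and 6.13 at 8 °C, against 5.77 and 6.09 at 20 °C. So did EXPA18, with 5.58 and 5.48 at 8 °C, against 5.59 and 5.70 at 20 °C. The part of root tissue in the PYK10 value was not tested. AT4G19530 (3.23-fold), AT2G32160 (3.74-fold) and AT1G25230 (3.47-fold) were lower at 8 °C as well. The choice of genes required a fall in both letters. The other falls among the 12 largest lost their call without the letter: AT1G35710 (5.70-fold lower, adjusted p = 0.0627), AT1G22890 (4.80-fold, 0.102), AT5G40450 (4.61-fold, 0.232), AT1G62660 (3.43-fold, 0.165) and AT1G76960 (3.30-fold, 0.131). AT1G62660 also lost it when array A of 8 °C was left out (adjusted p = 0.0826).

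Gene lists were compared with the background of 22.3% called. Of 142 genes on the lists of cold and leaf biology, 69 were called (48.6%), 44 higher and 25 lower at 8 °C. With the lists that were added later included, 162 of 556 genes were called, a smaller share and nearer to the background. The median difference of all probe sets was 0.02. The lists were written with earlier results of these data known, so their counts are descriptions.

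Every measured COR gene and dehydrin was higher after 78 h, 4 of 4 (of 16 listed), with a median of 0.91. COR15A, which makes a small protein of the chloroplast stroma that protects membranes in frost, had 14.27 and 14.24 at 8 °C, against 13.55 and 13.16 at 20 °C (0.90 ± 0.11, adjusted p = 4.91e-05). Its sister COR15B had 13.88 and 13.53 at 8 °C, against 13.09 and 12.46 at 20 °C (0.92 ± 0.14, adjusted p = 0.000332). Both are bright at 20 °C already, near the top of the range of the arrays, and the 8 °C arrays lay above all 20 °C arrays. The dehydrin COR47 had 13.08 and 11.81 at 8 °C, against 12.23 and 10.93 at 20 °C, so the groups overlapped and only the difference within a letter was steady (0.86 ± 0.20, adjusted p = 0.00477). Its adjusted p was 0.644 without the letter, 0.0605 without array A of 8 °C and 0.0504 without array B of 20 °C. STZ, a zinc finger repressor of the early cold response, was the single measured member of the 12 on the list of cold regulators. It had 6.68 and 6.60 at 8 °C, against 6.47 and 6.75 at 20 °C (limma adjusted p = 0.975).

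Flavonoid and anthocyanin synthesis had the highest median of the lists with at least 3 measured members, 1.66, with 6 of 7 genes higher and none lower (5 without the letter). DFR, dihydroflavonol reductase, which commits flavonoids to anthocyanins, had 11.09 and 11.14 at 8 °C, against 9.38 and 9.37 at 20 °C (1.75 ± 0.21, adjusted p = 4.55e-05). CHIL, a chalcone isomerase-like protein that aids the early steps, had 10.14 and 8.67 at 8 °C, against 7.25 and 7.03 at 20 °C. AT5MAT, which adds malonyl groups to anthocyanins, had 8.75 and 8.53 at 8 °C, against 6.99 and 6.97 at 20 °C (1.66 ± 0.18, adjusted p = 1.41e-05). In these genes the arrays of the 20 °C group lay within 0.3 of each other, and the spread of CHIL was on the 8 °C side. AT4G14090, listed by its locus code, rose by 1.74 ± 0.29.

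Genes of sugar transport and of starch changed in both directions. Of 11 sugar transporters 5 were higher and 1 lower (4 and 0 without the letter), with a median of 0.06. Next to SWEET13, TMT2, which moves hexoses into the vacuole, had 10.38 and 10.24 at 8 °C, against 9.48 and 9.12 at 20 °C (1.01 ± 0.14, adjusted p = 0.000127). AT1G19450, listed by its locus code, had 11.29 and 11.18 at 8 °C, against 9.16 and 9.60 at 20 °C. SWEET17, a fructose channel of the vacuole, was the one that fell, with 8.26 and 8.14 at 8 °C, against 9.28 and 9.21 at 20 °C (adjusted p = 0.00416). The SWEET17 call was lost without the letter (adjusted p = 0.137), without array A of 8 °C (0.0727) and without array B of 20 °C (0.0618), although the 4 arrays split cleanly.

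Starch synthesis was higher in 2 of 3 measured genes and starch breakdown lower in 2 of 2, each list having 16 entries. All 4 were also called without the letter. APL3 encodes a large subunit of the ADP-glucose pyrophosphorylase enzyme, which makes the precursor of starch, and had 9.53 and 9.47 at 8 °C, against 8.35 and 8.44 at 20 °C (1.11 ± 0.17, adjusted p = 0.000238). APL4, another large subunit, had 7.07 and 7.42 at 8 °C, against 6.66 and 6.90 at 20 °C (0.47 ± 0.09). DPE1, the plastid disproportionating enzyme that recycles the short glucans left from starch, had 9.69 and 10.03 at 8 °C, against 10.92 and 10.71 at 20 °C (-0.96 ± 0.14, adjusted p = 0.000254). The groups did not overlap for APL3 and DPE1, and for APL4 the dimmer 8 °C array lay only just above the brighter 20 °C array. PWD, phosphoglucan water dikinase, which phosphorylates starch before its breakdown, fell by 0.32 (adjusted p = 0.00633), and this call was lost without array A of 8 °C (0.0657) or of 20 °C (0.0994). On the sucrose list, ATSPS4F, a sucrose phosphate synthase, differed by 0.66 ± 0.19 (adjusted p = 0.0194, and 0.0785 without the letter). Its call was lost without array A of 8 °C (0.198) or of 20 °C (0.27).

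The few measured nuclear transcripts for the light reactions were lower by modest amounts where they were called. Of 4 nuclear photosystem subunits 3 were lower (2 without the letter, median -0.35). Of 3 light-harvesting genes 2 were lower (0 without the letter, median -0.30), and none on either list was higher. These 3 are all of the LHCB4 family, so other light-harvesting genes are not covered. PSAN, a subunit of photosystem I at the side where plastocyanin docks, had 13.22 and 13.35 at 8 °C, against 13.69 and 13.65 at 20 °C (-0.38 ± 0.06, adjusted p = 0.000402). PSAE-1, a stromal subunit of photosystem I, had 13.93 and 13.98 at 8 °C, against 14.27 and 14.33 at 20 °C (-0.34 ± 0.05, adjusted p = 0.000352). These differences are small, about 1.3-fold, and larger than the spread between arrays in both genes. PSBW (-0.35), LHCB4.1 (-0.25) and LHCB4.2 (-0.46) were called with the letter but not without it (adjusted p = 0.0561, 0.0894 and 0.124), and each lost the call without array A of 8 °C (0.176, 0.138 and 0.266) or of 20 °C (0.0942, 0.0692 and 0.15).

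Of 4 photorespiration genes 2 were lower (2 without the letter, median -0.38). HPR, the peroxisomal hydroxypyruvate reductase, had 12.66 and 12.79 at 8 °C, against 13.26 and 13.32 at 20 °C (-0.57 ± 0.10, adjusted p = 0.00103). Of 3 Calvin cycle genes PRK, phosphoribulokinase, was lower (-0.50, adjusted p = 0.000557, 0.229 without the letter), while RCA, Rubisco activase, and SBPASE were not called (-0.15 and 0.17). Chlorophyll synthesis had 1 gene higher and 1 lower of 7. CHLI2, a subunit of magnesium chelatase, had 10.89 and 11.01 at 8 °C, against 10.38 and 10.49 at 20 °C (0.51 ± 0.07, adjusted p = 0.000106).

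Larger falls than in these subunits were found in a list of 17 assembly and cyclic electron flow factors that was written after the largest changes had been seen. In it 7 genes were lower (5 without the letter) and none higher, with a median of -0.22. PGRL1B, which carries cyclic electron flow around photosystem I, had 7.67 and 7.68 at 8 °C, against 9.07 and 8.92 at 20 °C (-1.32 ± 0.08, adjusted p = 1.16e-07). PIFI, a stromal protein of the chloroplast NDH pathway, had 11.60 and 11.54 at 8 °C, against 12.90 and 12.68 at 20 °C (-1.22 ± 0.12, adjusted p = 1.02e-05). NdhN, a nuclear-encoded subunit of the NDH complex, had 10.31 and 10.52 at 8 °C, against 11.04 and 11.32 at 20 °C (-0.76 ± 0.07, adjusted p = 4.87e-06). In PGRL1B, PIFI and NdhN, as in NdhL (-0.54), both 8 °C arrays lay below both 20 °C arrays.

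All 4 measured genes of reactive oxygen scavenging, of 20 listed, were called, 3 higher and 1 lower, with the letter and without it. GR1, a glutathione reductase, which regenerates reduced glutathione, had 11.25 and 11.09 at 8 °C, against 9.67 and 9.45 at 20 °C (1.61 ± 0.12, adjusted p = 6.15e-07). SAPX, the stromal ascorbate peroxidase, had 11.18 and 11.19 at 8 °C, against 10.34 and 10.42 at 20 °C (0.81 ± 0.10, adjusted p = 3.64e-05). TAPX, the ascorbate peroxidase of the thylakoid membrane, went the other way, with 10.10 and 10.24 at 8 °C, against 10.86 and 10.83 at 20 °C (-0.67 ± 0.10, adjusted p = 0.000174). The 2 peroxidases of the same plastid were thus separated by direction, with no overlap in either. The second glutathione reductase, GR, rose by 0.49 ± 0.07. In ascorbate synthesis, a list written after the largest changes were seen, 3 of 3 were higher and 2 without the letter. VTC4, which makes L-galactose, had 10.72 and 10.63 at 8 °C, against 9.84 and 9.79 at 20 °C. The smaller differences of GLDH (0.26) and GME (0.25) were less steady. GLDH lost its call without array B of 8 °C (adjusted p = 0.0914) or of 20 °C (0.102). GME lost it without the letter (0.516), without array A of 8 °C (0.246) and without array A or B of 20 °C (0.105 and 0.134).

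The 3 measured genes of alternative respiration, which take electrons past the proton-pumping complex I, were higher with the letter (median 0.42) and none was called without it. NDB2 had 9.35 and 8.67 at 8 °C, against 7.92 and 7.83 at 20 °C (1.14 ± 0.30, adjusted p = 0.0115). Its call was lost without array A of 8 °C (0.0672), array B of 8 °C (0.0591) or array A of 20 °C (0.153).

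Among genes of ribosome assembly and of the CCT chaperonin 6 of 8 and 5 of 8 were higher, and none of them was lower. The ribosome biogenesis list had 2 called without the letter, all 8 differences were positive, and the median was 0.63. AT3G22660, listed by its locus code, had 9.71 and 9.93 at 8 °C, against 8.38 and 8.90 at 20 °C (1.18 ± 0.22, adjusted p = 0.00131). YAO, a nucleolar protein of ribosomal RNA processing, had 9.52 and 9.52 at 8 °C, against 8.78 and 8.73 at 20 °C (0.76 ± 0.12, adjusted p = 0.000264). The YAO arrays agreed within 0.1 in each group. Of the 8 subunits of the cytosolic chaperonin CCT, which folds tubulin and actin, all listed by locus code, 5 were higher (3 without the letter) and the median was 0.44. AT1G24510 led them, with 11.84 and 11.65 at 8 °C, against 11.06 and 11.09 at 20 °C (0.67 ± 0.13, adjusted p = 0.00182). In a later list of 17 co-chaperones and folding factors 1 was higher and 2 were lower, with a median of 0.09. In a later list of 10 subunits of nuclear RNA polymerases all 10 differences were positive and 3 were called. NRPB9B had 8.58 and 8.67 at 8 °C, against 7.59 and 7.72 at 20 °C (0.97 ± 0.09, adjusted p = 5.47e-06).

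Genes of cell growth moved one by one. Of 18 expansins 3 were higher and 2 lower, close to the background share, with a median of 0.05. EXPA9, another expansin, had 8.12 and 7.93 at 8 °C, against 6.86 and 6.88 at 20 °C (1.16 ± 0.19, adjusted p = 0.000533), the opposite direction of EXPA8. Of 7 tubulins, the subunits of microtubules, 3 were lower and none higher. TUA6 had 12.07 and 12.35 at 8 °C, against 12.87 and 12.69 at 20 °C (-0.57 ± 0.09, adjusted p = 0.000501), and TUB6 fell by 0.57 ± 0.11. Of 9 xyloglucan endotransglucosylases 1 was called (XTH32, 0.56, adjusted p = 0.603 without the letter and 0.0525 without array A of 20 °C). None of 4 gibberellin genes was called, and of 11 auxin genes 1 was (IAA34, 0.29, lost in 3 of the 4 fits that left out 1 of these arrays, with adjusted p up to 0.455).

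Both measured genes of glucosinolate synthesis, the mustard oil precursors, were lower with the letter: BCAT4, which starts the elongation of methionine, had 11.56 and 11.53 at 8 °C, against 12.52 and 12.26 at 20 °C (-0.84 ± 0.17, adjusted p = 0.00192, 0.0935 without the letter). In leucine breakdown IVD had 7.27 and 7.39 at 8 °C, against 7.92 and 7.85 at 20 °C (-0.56 ± 0.09, adjusted p = 0.000371). Of the 3 vacuolar processing enzymes BETA-VPE was higher, GAMMA-VPE lower (-0.89 ± 0.18, adjusted p = 0.00204, 0.363 without the letter) and ALPHA-VPE not called (0.09). Autophagy genes of the ATG8 and ATG3 families, a later list, were lower in 8 of 10 (4 without the letter), all 10 differences were negative, and the median was -0.46. ATG8E, a ubiquitin-like protein that coats forming autophagosomes, had 6.71 and 6.99 at 8 °C, against 7.99 and 7.96 at 20 °C (-1.13 ± 0.17, adjusted p = 0.000204). THI2.2, a thionin, was higher, with 9.22 and 9.26 at 8 °C, against 7.83 and 7.97 at 20 °C (1.34 ± 0.14, adjusted p = 1.29e-05), in a later list of 11 defensins, thionins and jacalins with 2 higher and 2 lower.

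**Figure D2:**
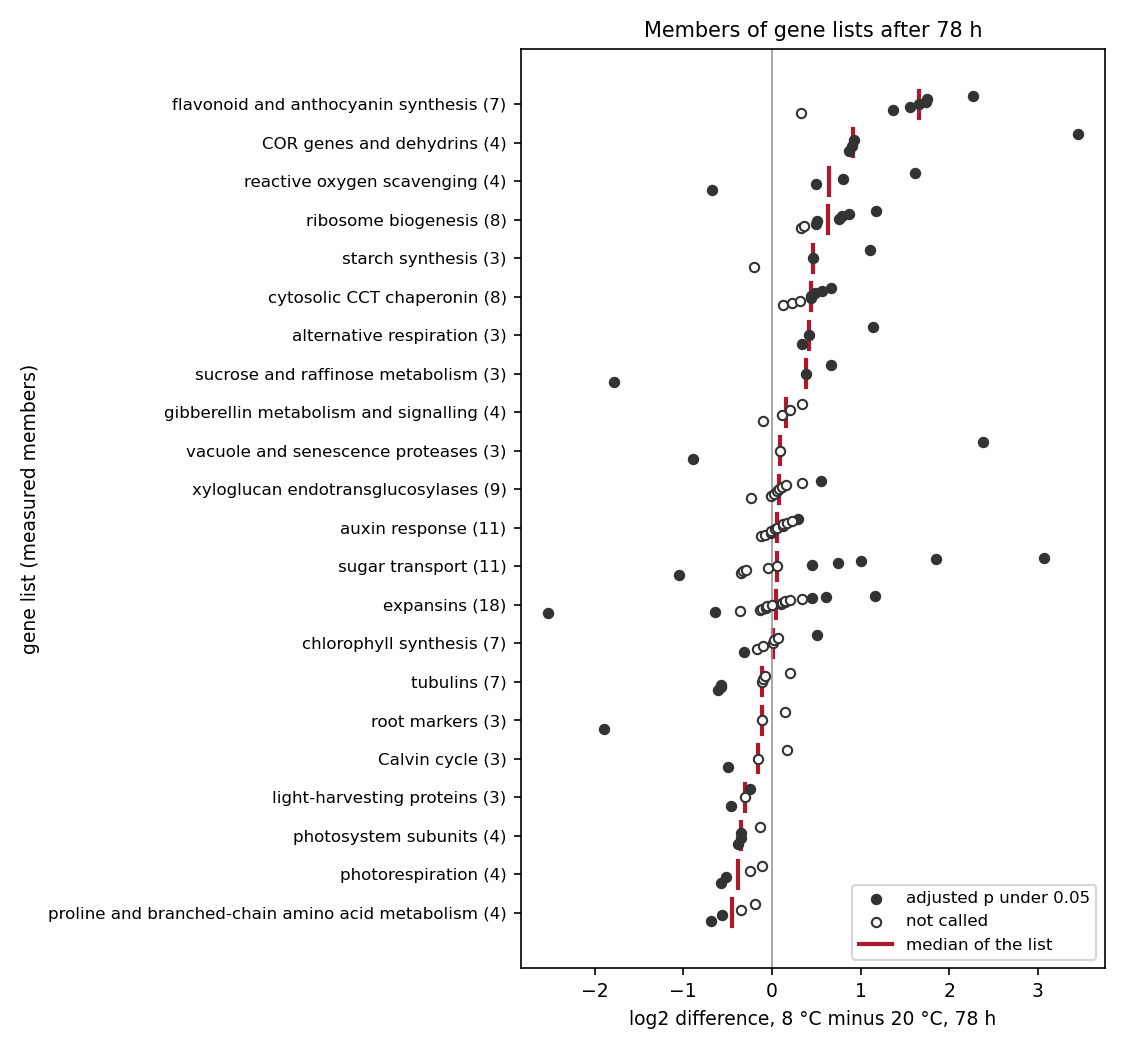
Log2 difference of 8 °C minus 20 °C after 78 h for each measured member of the lists with at least 3 members, ordered by median (red bar), filled where limma's adjusted p was under 0.05. Flavonoid synthesis (median 1.66) and the COR genes (0.91) lie to the right and photorespiration (-0.38) to the left, while the 18 expansins centre on 0.05 with EXPA8 far to the left.

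The 8 °C plants were the coldest of 6 groups, and the other groups of 78 h show where the largest differences built up. These groups share the 20 °C arrays, so their values are only set side by side. The mean of LTI30 was 9.50 at 20 °C, 10.84 at 17 °C, 11.44 at 14 °C, 12.05 at 12 °C, 12.48 at 10 °C and 12.96 at 8 °C, with the widest single step between 20 and 17 °C. SWEET13 stood at 6.67, 7.32, 7.51, 8.23, 9.19 and 9.74 in the same order and climbed mostly below 14 °C. DI19 stood at 12.04, 11.57, 11.36, 10.91, 10.42 and 10.23, and AT3G56060 at 7.88, 7.36, 6.95, 6.34, 5.49 and 5.24. The 4 genes ran in one direction from group to group. DFR, by contrast, had its highest mean at 10 °C (11.52) and a lower one at 8 °C (11.12), after 9.37, 9.94, 10.50 and 11.11 at 20, 17, 14 and 12 °C.

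No probe set differed between 8 °C and 10 °C after 78 h at a limma adjusted p under 0.05. At an unadjusted p under 0.05 there were 1071 (4.71%), and 360 (1.58%) without the letter, and the lowest adjusted p was 0.412. The fits without 1 array and the other alternatives also called 0. The differences at this step were 0.48 ± 0.21 for LTI30, 0.55 ± 0.14 for SWEET13, -0.40 ± 0.21 for DFR and -0.59 ± 0.19 for PYK10. None of these passed the threshold.

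**Figure D3:**
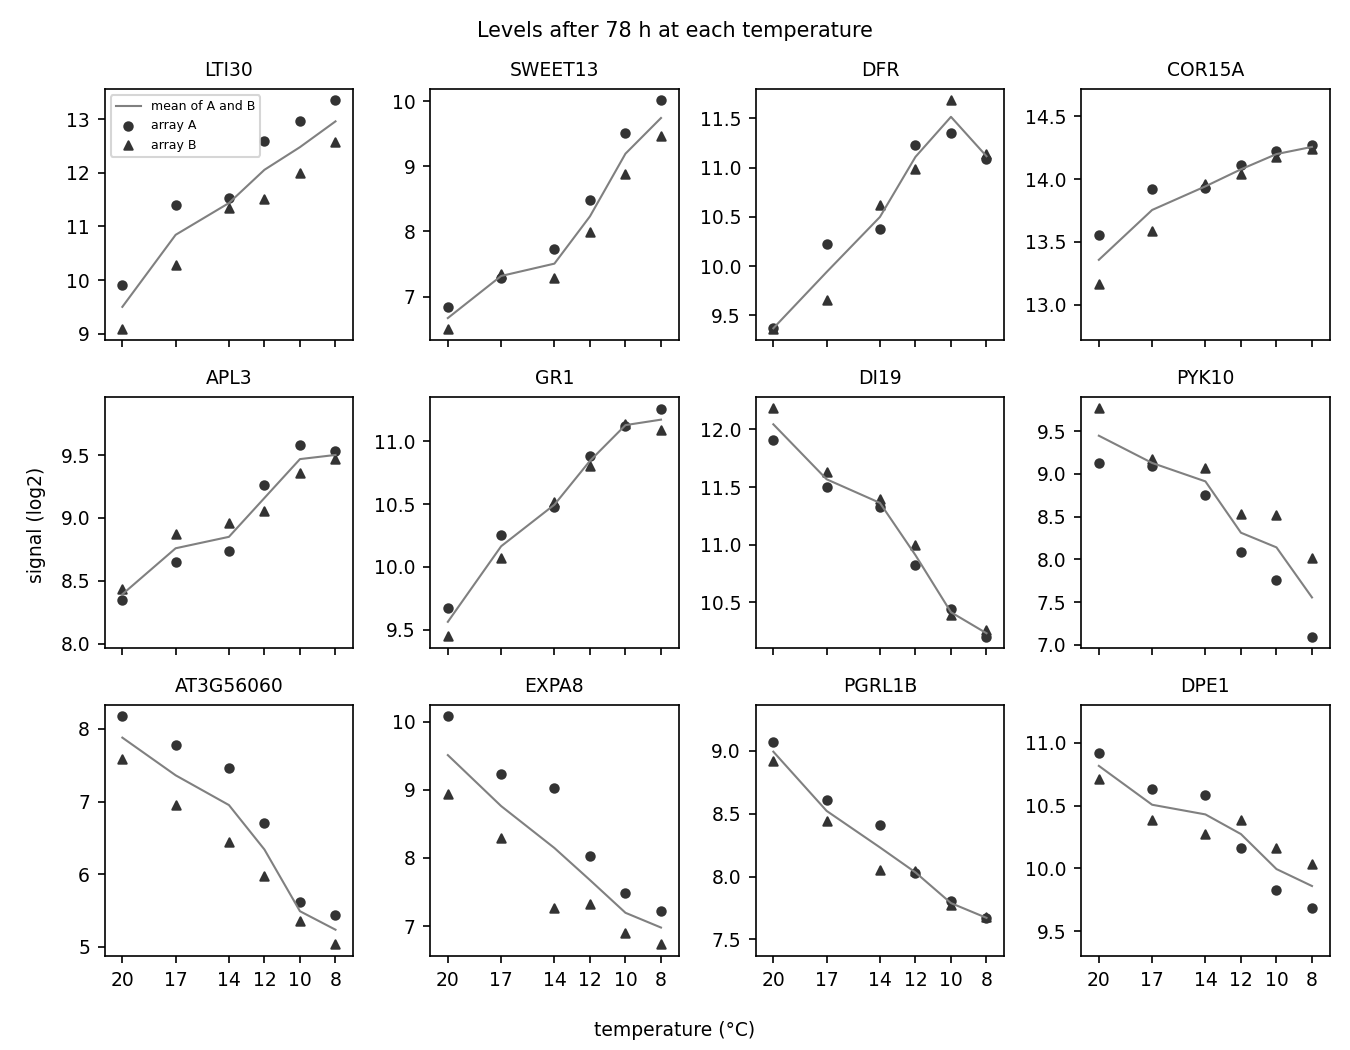
Log2 signals after 78 h at 20, 17, 14, 12, 10 and 8 °C for 12 genes, circles for array A, triangles for array B and a line through the means. Panels have their own vertical scale. LTI30 and SWEET13 climb to their highest means at 8 °C (12.96 and 9.74), while the mean of DFR is highest at 10 °C (11.52).

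For a part of the probe sets the difference between 8 °C and 20 °C was not the same at 78 h as at 6 h. At 6 h, 4289 of 22746 probe sets were called (18.9%), 2043 higher and 2246 lower. Of the 2346 higher at 78 h, 807 were also higher at 6 h, which is 34.4% of the later and 39.5% of the earlier calls. Of the 2729 lower, 1146 were also lower at 6 h, 42% of the later and 51% of the earlier calls. A further 57 and 42 were called in the opposite direction at 6 h. Both overlaps were larger than the shares of all probe sets called higher or lower at 6 h. A call missing at 6 h is not in itself a change. Of the 2346 and 2729, the test of 78 h minus 6 h called only 591 and 428. Across all probe sets the differences at both times correlated at 0.56, on arrays that are not shared. The test of 78 h minus 6 h called 1478 probe sets (6.5%), 735 higher and 743 lower, with 929 and 588 after centring on the median (61.2% higher in place of 49.7%). That count was 73 (0.321%) without the letter and 186 with the 8 arrays concerned alone. Leaving out 1 of the 8 arrays moved it in both directions. It was 470 and 1054 without array A or B of the 8 °C plants at 78 h, 855 and 779 without array A or B of the 20 °C plants at 78 h, 540 and 1762 without array A or B of the 8 °C plants at 6 h, and 698 and 861 without array A or B of the 20 °C plants at 6 h. Between the 20 °C plants of 78 h and those of 6 h no probe set was called, with 1736 at an unadjusted p under 0.05 (7.63%) and 325 without the letter (1.43%).

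Among genes whose rise was larger at 78 h, AT5G48490 had 10.38 and 10.55 at 8 °C, against 8.39 and 8.54 at 20 °C after 78 h. After 6 h the same gene had 8.04 and 7.91 at 8 °C, against 8.27 and 8.40 at 20 °C, so that the 78 h minus 6 h value was 2.36 ± 0.32 (adjusted p = 0.000936, 0.0123 without the letter). The 8 °C arrays were far above the 20 °C arrays late and slightly below them early, where the difference of -0.36 was not called. SWEET13 had 8.06 and 7.37 at 8 °C, against 6.32 and 6.28 at 20 °C after 6 h, an early rise of 1.42 that was 1.65 ± 0.20 larger at 78 h (adjusted p = 0.000424, 0.117 without the letter). DFR had 10.08 and 9.66 at 8 °C, against 10.04 and 9.65 at 20 °C after 6 h, a difference of 0.03 that became 1.75 at 78 h (adjusted p = 0.00424, 0.0819 without the letter). APL3 had 7.97 and 8.10 at 8 °C, against 8.53 and 8.27 at 20 °C after 6 h, and its 78 h minus 6 h value was 1.48 ± 0.23 (adjusted p = 0.00238, 0.0276 without the letter). DFR and APL3 were not called at 6 h, while SWEET13 was already up. Other members of their lists were higher at 6 h, 2 of 7 for flavonoid synthesis, with AT5MAT at 0.90, and 1 of 3 for starch synthesis, APL4 at 0.31.

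SECA2, the motor of a second protein export system of plastid membranes, changed direction. It had 7.81 and 7.96 at 8 °C, against 6.92 and 7.10 at 20 °C after 78 h. After 6 h it had 6.24 and 6.66 at 8 °C, against 7.02 and 7.34 at 20 °C. The late rise of 0.88 and the early fall of -0.73 were each called, and they differed by 1.61 ± 0.19 (adjusted p = 0.00041, 0.0254 without the letter). ATSPS4F had 8.78 and 8.24 at 8 °C, against 9.37 and 9.31 at 20 °C after 6 h, a fall of -0.83 that stood against the later 0.66 (78 h minus 6 h 1.50 ± 0.27, adjusted p = 0.00474, 0.0552 without the letter).

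Other early rises had shrunk. AT5G62360 had 13.38 and 11.34 at 8 °C, against 10.46 and 9.50 at 20 °C after 6 h, and 10.76 and 9.45 at 8 °C, against 10.89 and 10.06 at 20 °C after 78 h. Its early rise of 2.38 was not seen late (-0.37, adjusted p = 0.255), and the 78 h minus 6 h value of -2.75 ± 0.31 was called (adjusted p = 0.000249, 0.639 without the letter). COR47 had 14.15 and 13.40 at 8 °C, against 11.58 and 10.46 at 20 °C after 6 h, a rise of 2.76 that stood at 0.86 at 78 h (78 h minus 6 h -1.90 ± 0.28, adjusted p = 0.0013, 0.794 without the letter). In LTI30 the rise was 4.39 at 6 h and 3.46 at 78 h, which did not differ at the threshold (adjusted p = 0.0748), and in COR15A it was 0.82 at 6 h and 0.90 at 78 h (adjusted p = 0.857). STZ was 2.46 higher at 6 h (9.82 and 8.07 at 8 °C, against 6.77 and 6.18 at 20 °C), and its 78 h minus 6 h value missed the threshold (adjusted p = 0.0578).

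Falls that were larger at 78 h included PYK10 and DI19. PYK10 had 9.66 and 9.94 at 8 °C, against 9.76 and 9.93 at 20 °C after 6 h, a difference of -0.05 against -1.89 at 78 h (adjusted p = 0.00123, 0.0868 without the letter). DI19 had 11.40 and 11.33 at 8 °C, against 11.58 and 11.83 at 20 °C after 6 h, an early fall of -0.34 that was -1.47 ± 0.13 deeper at 78 h (adjusted p = 6.47e-05, 0.00188 without the letter). AT3G56060 differed by -2.64 at 78 h and by -0.68 at 6 h (adjusted p = 0.00105, 0.452 without the letter). AT2G16890 was the same at both times, 2.87 late and 2.87 early, and EXPA8 was lower at both (-2.53 late, -1.81 early, adjusted p of the difference 0.357).

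**Figure D4:**
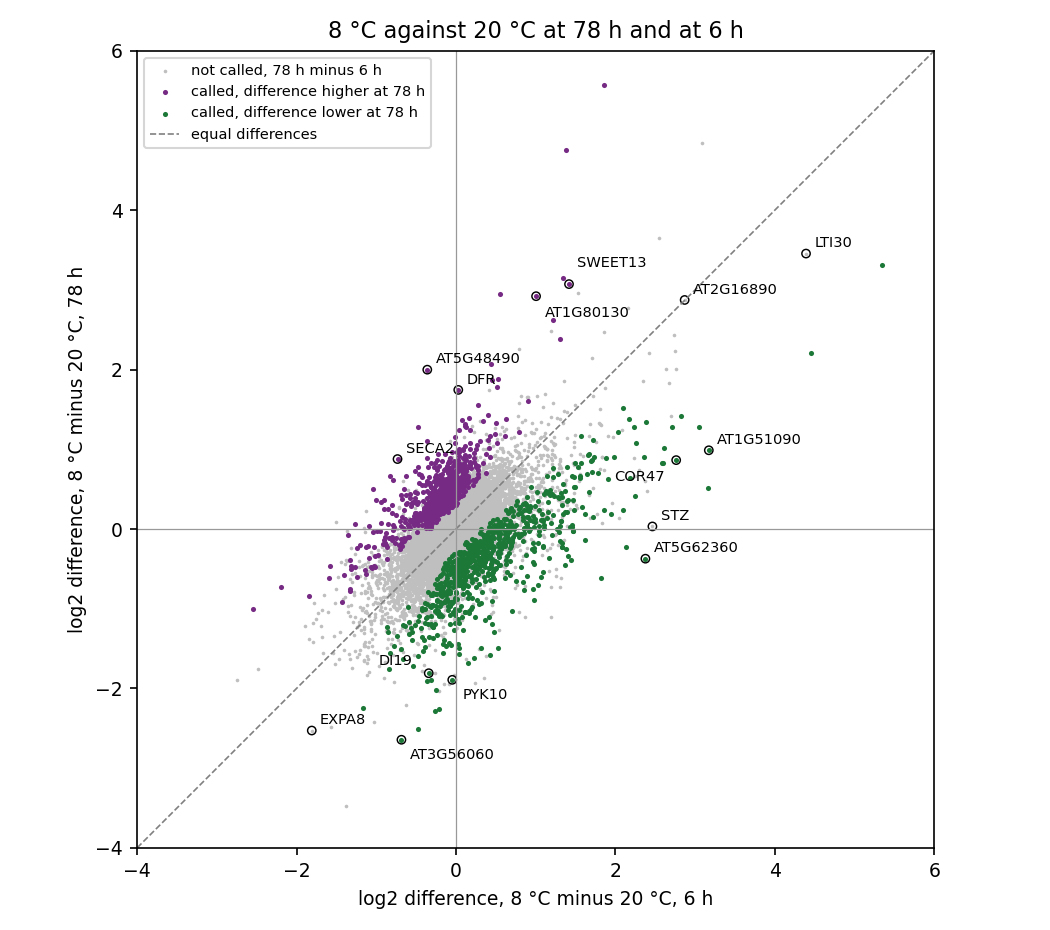
Log2 difference of 8 °C minus 20 °C at 78 h (vertical) against that at 6 h (horizontal) for all 22746 probe sets, coloured where the 78 h minus 6 h test was called (735 higher in purple, 743 lower in green). Genes named in the text are circled: AT5G48490 (2.00) and DFR (1.75) are high at 78 h and near 0 at 6 h, AT5G62360 and STZ (2.38 and 2.46 at 6 h) are near 0 at 78 h, and AT2G16890 lies on the line of equal differences.

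The A and B arrays each gave a difference between 8 °C and 20 °C for every probe set. Across all probe sets these 2 differences correlated at 0.83, with SDs of 0.39 (A) and 0.35 (B). Both pointed the same way at 72.6% of all probe sets. They also did so at each of the 5075 called, which selection on these same differences favours. The 8 °C arrays lay wholly above the 20 °C arrays at 26.6% of all probe sets and wholly below at 23.1%.

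**Figure D5:**
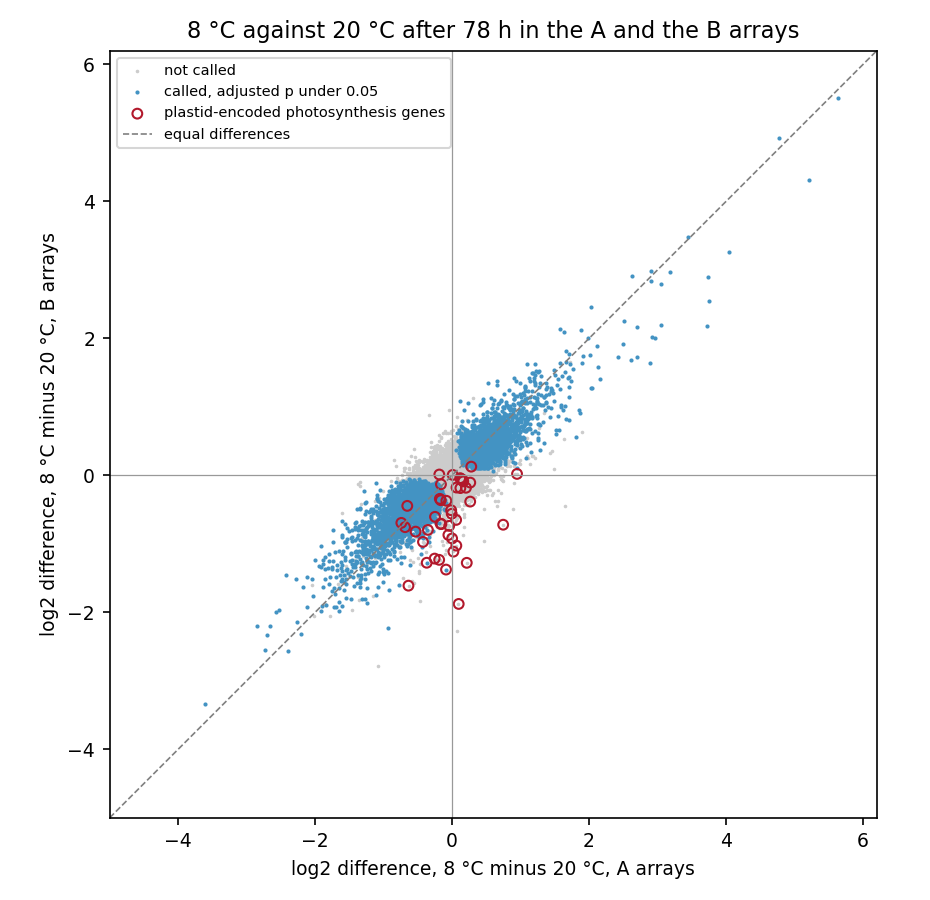
Log2 difference of 8 °C minus 20 °C after 78 h in the B arrays (vertical) against the A arrays (horizontal), blue where called. Red circles mark plastid-encoded photosynthesis genes, of which many lie below the line of equal differences. The correlation over all 22746 probe sets is 0.83.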

How the data were processed

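The authors deposited 1 table of log2 signals, with 22810 probe sets on 24 one-colour arrays (the base of the log was inferred from the range). Per the labels' protocols, about 10 µg of Trizol-extracted RNA gave the biotinylated cRNA that was hybridised. How the arrays were normalized, and with which software, is not stated in the labels, and the deposited values were kept. Tests ran on 22746 probe sets, after removal of 64 for controls. Genes came from the given probe annotation: 13513 probe sets had 1 gene, 503 several and 8730 none, and 13436 of the first matched the TAIR10.1 gene table. Only a locus code named 11933 of them. Such loci are given no role beyond that of a gene list, on which 31 were placed by their locus code.

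A linear model with a mean for each of 12 groups and the array letter as a block was fitted in limma 3.58.1 (R 4.3.3) to all 24 arrays, with 11 residual degrees of freedom. Its contrasts were 8 °C minus 20 °C at 78 h, that difference minus the one at 6 h, and 8 °C minus 10 °C at 78 h. Calls used a Benjamini-Hochberg adjusted p under 0.05 over all 22746. Errors are the model's SE. The letters were taken as pairs because the A minus B differences of all 66 pairs of groups correlated between 0.52 and 0.89. The alternatives were no block, fewer arrays, median centring, cyclic loess, a filter on dim probe sets, robust moderation, array weights and leaving out each array.

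Named genes are the 15 largest rises and 12 largest falls among called single-gene probe sets with both letters in one direction, the 5 largest each way for 78 h minus 6 h, and up to 4 members per list by size of the difference. A gene with several probe sets is represented by the brightest. Of 40 lists 31 had a measured member, and 31 lists, here called later lists, were added from the annotation. The comparison and lists were chosen with earlier results of these data known. The pipeline was tested on simulated data.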

Additional observations from a re-analysis of the deposited data

Results flagged for a closer look

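Of the 231 genes that the naming rule yields, 45 had a difference between 8 °C and 20 °C that was not the same at 78 h as at 6 h (test of 78 h minus 6 h, limma adjusted p under 0.05), 20 higher and 25 lower. Over all probe sets that test called 6.5%. Genes were named partly by this same test and partly by the size of their 78 h difference. The count of 45 is therefore raised by the selection and only describes these genes. Without the letter in the model 5 were called: AT5G48490, DI19, SECA2, APL3 and SAPX. Higher values, in log2 units, were 2.36 for AT5G48490, 1.92 for AT1G80130, 1.72 for DFR, 1.65 for SWEET13, 1.61 for SECA2, 1.50 for ATSPS4F, 1.48 for APL3, 1.40 for EXLB1, 1.35 for AT4G12490 and 1.08 for BETA-VPE. EXLB1, an expansin-like gene, was 0.61 at 78 h and -0.79 at 6 h, both called. Below 1 they were 0.96 for NRPB9B, 0.83 for SAPX and THI2.2, 0.70 for GR1, 0.57 for BGLU15, 0.53 for scpl46, 0.48 for AGL26, 0.47 for CHLI2, 0.44 for GLDH and 0.42 for GME. SAPX was -0.02 at 6 h and 0.81 at 78 h, while its thylakoid counterpart TAPX went further down.

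Lower values were -2.75 for AT5G62360, -2.18 for AT1G51090, -2.05 for AT1G22890, -2.04 for AT1G35710, -2.01 for AT5G58570, -1.96 for AT3G56060, -1.90 for COR47, -1.85 for PYK10, -1.54 for AT2G32160 and -1.47 for DI19. Smaller ones were -1.15 for SWEET17, -1.07 for EXPA16, -0.91 for PIFI, -0.79 for LHCB4.2, -0.75 for GI, -0.73 for PGRL1B, -0.57 for TUB6 and -0.51 for GID1C. The clock gene GI was 1.18 higher at 6 h and 0.42 higher at 78 h, at the same hour of the day, where its call was lost without the letter (adjusted p = 0.66) and without each of the 4 arrays (0.0669 to 0.24). The smallest were -0.49 for TAPX, -0.48 for TBL38 and IVD, -0.44 for PSAN, -0.41 for AT1G80380, -0.39 for RCA and -0.30 for PSAE-1.

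The control probe sets were used in no comparison, and their calls are set beside the 22.3% called over all other probe sets. Of 64, 13 were called between 8 °C and 20 °C at 78 h, nearly all of them for plant transcripts. Among the 19 for plant transcripts 5 were higher and 7 lower, a larger share than over all other probe sets. Among 27 for bacterial transcripts added to the RNA 1 was higher. The 5 higher were all for GAPDH and the 7 lower for actin and ubiquitin, so these are repeated probe sets of few transcripts. None of the 18 for hybridisation controls was called, though all 18 differences were negative (median -0.36). These too are repeated probe sets of few transcripts, and in some of them the B arrays went the other way. AFFX-BioB-M_at had 6.26 and 6.59 at 8 °C, against 7.24 and 6.45 at 20 °C. Groups of 2 arrays are too small for a search for arrays that stand apart.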

How the results depend on the processing

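The letter block had the largest effect. Without the replicate block the count for 8 °C against 20 °C at 78 h was 1675 in place of 5075, and that for 78 h minus 6 h was 73 in place of 1478. Of 142 called genes among the 231 named, 77 kept their call without the block. With the 8 arrays of 8 and 20 °C alone the 78 h minus 6 h count was 186. Leaving out 1 array gave 2594 to 5316 calls for 8 °C against 20 °C, 470 to 1762 for 78 h minus 6 h and 0 to 0 for 8 °C against 10 °C. The lowest counts of the first 2 were without array A of 8 °C at 78 h, where the remaining array was assumed to vary like the other groups, and 91 of the 142 genes kept their call under each array left out. Median centring, cyclic loess, the filter on dim probe sets, robust moderation and array weights kept every count of calls within 1.5 times. Median centring turned the split to 3146 higher and 2321 lower, against 2346 and 2729. No named gene changed direction under the alternatives run while called. In simulated data on 22746 probe sets for 8 °C against 20 °C at 78 h, 68% of added log2 changes of 0.5 were recovered. The share was 98% for changes of 1 and 92% for changes of -1. Each size was added to 50 probe sets, with independent noise and the letter effect kept. Far fewer probe sets changed there than were called in the data, so these shares describe the simulation only.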

Other observations

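Several groups of plastid-encoded photosynthesis transcripts had unlike differences in the A and the B arrays. For 20 plastid-encoded photosystem subunits the median difference of 8 °C minus 20 °C at 78 h was -0.06 between the A arrays and -0.58 between the B arrays, and 2 were called, both lower. For 6 subunits of the plastid ATP synthase it was 0.04 (A) and -1.07 (B), with 1 called, and for 6 of the cytochrome b6f complex 0.11 (A) and -0.72 (B), with 1 called. For 10 NDH subunits it was -0.07 (A) and -0.37 (B), with none called. Medians were alike in both letters for 4 subunits of the plastid RNA polymerase, 0.41 (A) and 0.35 (B). They were 0.22 (A) and 0.22 (B) for 15 organelle-encoded ribosomal proteins, and each of these lists had 1 called, higher. Their single members could still differ between letters, as in rpoC2, with 11.72 and 11.76 at 8 °C, against 10.63 and 11.21 at 20 °C. Over 69 probe sets of plastid genes the medians were 0.06 (A) and -0.24 (B). The gene psbB had 11.72 and 9.60 at 8 °C, against 12.35 and 11.21 at 20 °C (adjusted p = 0.103), and atpA had 12.46 and 11.56 at 8 °C, against 12.45 and 12.67 at 20 °C (adjusted p = 0.304). In both the B array of 8 °C is the lowest of the 4. The large subunit of Rubisco, rbcL, ran against them with 12.07 and 11.10 at 8 °C, against 10.36 and 10.29 at 20 °C (1.26 ± 0.40, adjusted p = 0.0354, 0.0922 without the letter). Its call was lost without array A of 8 °C (0.363), array A of 20 °C (0.136) or array B of 20 °C (0.12).

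On a later list of membrane trafficking genes, meant for the exocyst and ESCRT complexes, 9 of 21 were lower and 1 higher (median -0.16). Without the letter 1 was called. VPS60.2 had 7.58 and 7.68 at 8 °C, against 8.39 and 8.23 at 20 °C (-0.68 ± 0.10, adjusted p = 0.000234). The higher one was VPS9B, which is not a subunit of either complex. It had 8.29 and 8.64 at 8 °C, against 7.55 and 7.89 at 20 °C (0.75 ± 0.07, limma adjusted p = 7.33e-06, 0.146 without the letter). Of 40 AGAMOUS-like factors, which regulate development, 1 was called, and of 6 WRKY factors none was.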
